A study of Bos taurus with 18 samples.

Results

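The subject here is the expression of 4 genes that move ions, sugar, urea and small molecules across or between cells of the uterine lining: CFTR (ENSBTAG00000006589), SLC5A1 (ENSBTAG00000012851), SLC14A1 (ENSBTAG00000019870) and GJB6 (ENSBTAG00000038662). They were chosen by name, 4 of the 36075 genes in the deposited count table, and their identifiers came from the study's supplementary gene lists, which pair identifiers with symbols. CFTR is a chloride and bicarbonate channel that is opened by cyclic AMP signaling. SLC5A1, also called SGLT1, carries glucose into the cell together with sodium. SLC14A1 is a facilitative urea transporter, and GJB6 is connexin 30, a subunit of gap junction channels that join neighbouring cells. The fluid in the uterine lumen feeds the conceptus before implantation, and the movement of ions and glucose by the luminal epithelium draws water and sets what this fluid contains.

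RNA was sequenced from the 3D bovine endometrium-on-a-chip, in which primary bovine endometrial epithelial cells (bEECs) lay on the underside of a porous membrane in the flowing lower channel and bovine endometrial stromal cells (bESCs) lay above it in a static chamber. The medium that flowed past the bEECs held PBS as the vehicle control (VC), recombinant bovine CAPG (rbCAPG) at 1 µg/mL or recombinant bovine PDI (rbPDI) at 1 µg/mL, each for 24 h. CAPG, an actin-capping protein, and PDI, a protein disulfide isomerase, are proteins that the bovine conceptus releases around the time of pregnancy recognition. Both cell types were collected from each device, giving 6 groups with n = 3 samples each and 18 samples in all, and replicates 1 to 3 were 3 animals, each device holding both cell types of 1 animal. The cells came from late-luteal uterine tracts collected at an abattoir (ages and breeds not given in the sources used here), carried no genetic change, had been enriched by differential trypsinization in earlier culture, and had not been sorted, so each group is an enriched and not a pure population. The medium reached the bESCs only through the membrane.

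The values are estimated counts, given here also as CPM, in which counts are scaled to a common library total with edgeR's TMM factors. Total counts ran from 10072851 (rbPDI bESCs, animal 1) to 44253149 per sample, and 1 count was worth from 0.0186 to 0.0869 CPM. All 4 genes passed the filter on low counts. To be called, a gene needed an adjusted p under 0.05 in edgeR's quasi-likelihood test over 17931 genes together with a log2 fold change above 1 or below -1, and the same test with the animal as a block is given where it changed the call. CPM is not scaled for gene length, so levels are compared between samples and not between genes. The label of these genes as epithelial was set first against the data. Of the 4 genes only SLC5A1 was called higher in VC bEECs, on few counts and without stability to leaving out samples.

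With VC, SLC5A1 was detected in bEECs and not in bESCs, GJB6 was low in both cell types with no difference detected, and CFTR and SLC14A1 were far higher in bESCs. CFTR had 3 counts in each of the 3 VC bEEC samples, or 0.0921 ± 0.00342 CPM (SD, n = 3), and 40, 93.5 and 206 counts in the VC bESC samples of animals 1 to 3, or 2.70 ± 1.48 CPM (SD, n = 3). The groups did not overlap, and 28.3% of all tested genes were likewise lower in bEECs without overlap. For CFTR the log2 difference, bEECs minus bESCs, was -4.83 (SE 0.59, edgeR adjusted p = 5.24e-06). Since the bEEC value rests on 9 counts in all, the ratio of bESCs to bEECs was also computed from the summed counts, as 31.3 with an exact 95% counting interval of 16.3 to 69.1. Such intervals cover counting error only and not the spread between animals. Amplified copies of one molecule were not told apart, so the intervals can be too narrow even for that error.

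SLC14A1 had 2.90, 4.35 and 2.33 CPM in the VC bEECs of animals 1 to 3 and 51.1, 54.3 and 64.5 CPM in their VC bESCs. Each animal had more in its stromal cells, and the difference was -4.15 on the log2 scale (bEECs minus bESCs, SE 0.46, edgeR adjusted p = 1.81e-06). GJB6 had 0.0302, 0.320 and 0.299 CPM in VC bEECs against 0.529, 0.516 and 0.129 CPM in VC bESCs. Animal 3 ran the other way from animals 1 and 2, and no difference was detected (log2 difference -0.82, 95% interval -2.37 to 0.73, edgeR adjusted p = 0.375).

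SLC5A1 had 2, 5 and 0 counts in VC bEECs and 0 counts in each of the 9 bESC samples, VC and treated alike. At 3 counts per library, a count of 0 allows up to 0.0557 to 0.261 CPM in these bESC samples, the upper value in the shallowest library. The fit called SLC5A1 at baseline (edgeR adjusted p = 0.0451), but the samples overlapped at 0 and the adjusted p ran from 0.0189 to 0.160 across the alternatives, so no fold is given. The call was lost without the VC bEEC sample of animal 1 or 2 and without any 1 of the 3 VC bESC samples, which left 2 of the 4 genes called. Of the 4 genes, 3 were thus called between the cell types with VC, 2 lower in bEECs and SLC5A1 higher, where 38.5% of all tested genes were called, 18.9% lower and 19.6% higher. SLC5A1 passed the filter on low counts only through the treated bEECs, so its call is no independent support for the epithelial label.

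**Figure D1:**
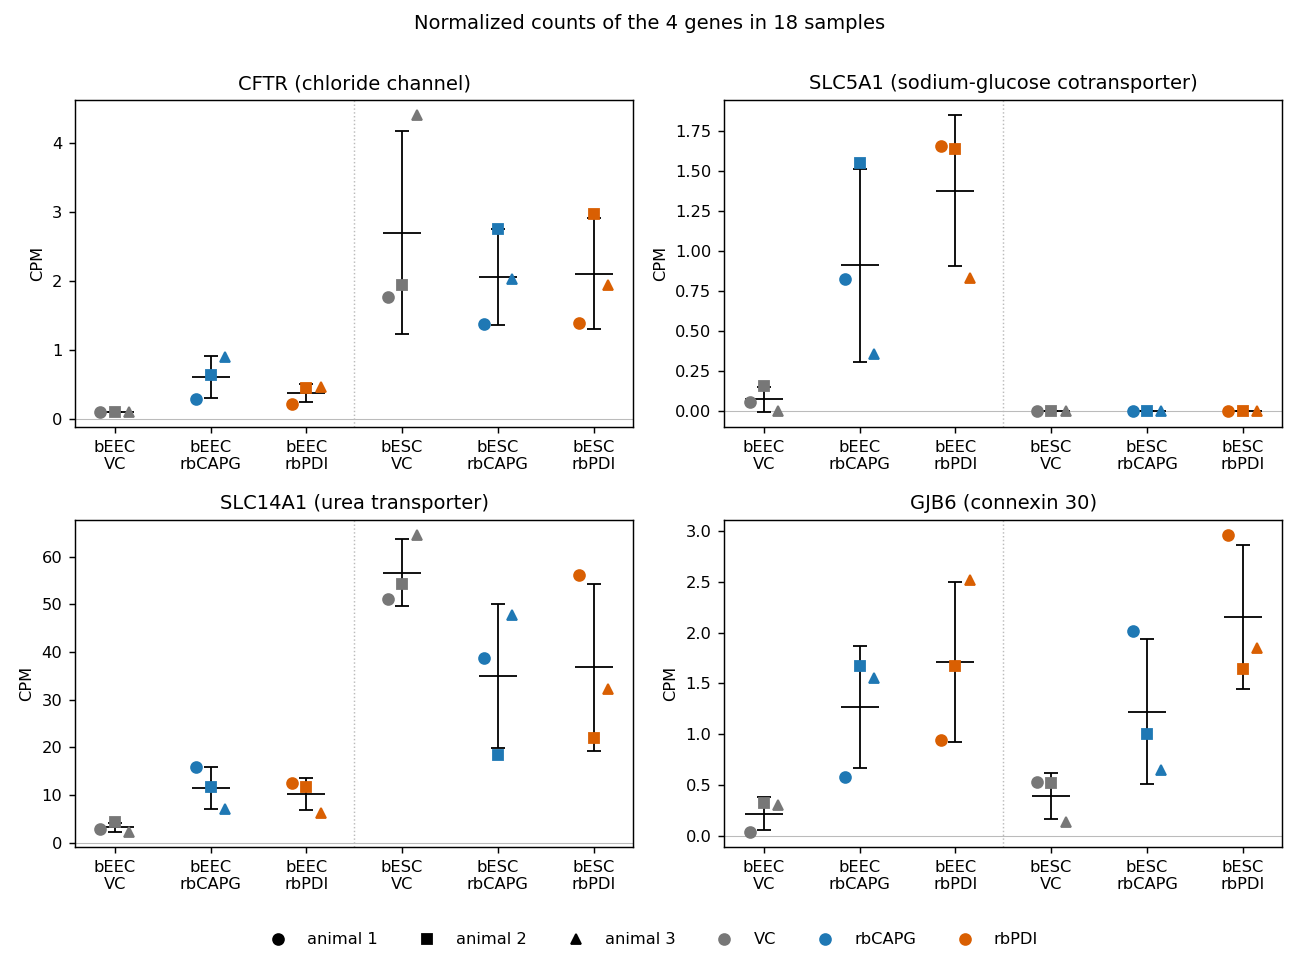
CPM of CFTR, SLC5A1, SLC14A1 and GJB6 (y axes, linear, from 0, a separate scale for each gene) in the 6 groups of n = 3, with 1 point per sample, the point's shape giving the animal and its color the treatment; horizontal lines are means and bars are SD. CFTR and SLC14A1 are highest in the bESC groups, SLC5A1 is at 0 in the 9 bESC samples, and each gene is higher in treated than in VC bEECs.

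The first question for the treated devices was whether the epithelial cells that met the proteins changed expression of these genes. With rbCAPG, the 4 genes were higher in bEECs in each animal with no overlap between the groups, by 1.85 to 3.59 on the log2 scale, yet 0 of 4 were called by the main edgeR test, where 0.513% of all tested genes were called and 8.72% were higher without overlap. The 4 genes had an unadjusted edgeR p under 0.05, as did 7.21% of all tested genes. With the animal as a block in edgeR, 4 of 4 were called, against a background of 2.19%, and DESeq2 without a block also called 4 of 4, against 0.906%. These counts include SLC5A1, which passed the filter on low counts only through the treated bEECs. All 4 genes were in the study's own list of genes changed by rbCAPG in bEECs in these samples. Neither their direction nor the number called, also beside the share of all tested genes, is therefore independent evidence. In bulk samples, fewer cells of a type and less RNA per cell cannot be told apart.

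In bEECs treated with rbCAPG, CFTR rested on 7, 21 and 30 counts in animals 1 to 3, or 0.289, 0.626 and 0.893 CPM, where each VC sample had 3 counts. Animal 3 was highest and animal 1 lowest. The log2 fold change was 2.68 (95% interval 1.44 to 3.92, edgeR adjusted p = 0.0539, and 0.0166 with the animal as a block), and the ratio of the summed counts, 58 against 9, was 6.90 with an exact 95% counting interval of 3.40 to 15.8. With rbPDI, CFTR had 5, 13 and 17 counts, or 0.213, 0.444 and 0.456 CPM. These again lay above the VC samples in the same order of animals, with a log2 fold change of 1.99 (95% interval 0.73 to 3.25, edgeR adjusted p = 0.178, and 0.0739 with the block). Without the rbCAPG sample of animal 1, CFTR was called with rbCAPG (log2 fold change 3.00, edgeR adjusted p = 0.0300).

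For SLC5A1 the bEEC counts were 2, 5 and 0 with VC, 20.25, 52 and 12.5 with rbCAPG and 39, 48 and 31 with rbPDI. In CPM this was 0.0604, 0.160 and 0 with VC, 0.827, 1.55 and 0.357 with rbCAPG, and 1.66, 1.64 and 0.832 with rbPDI. Animal 3, which had no count with VC, was lowest with each protein. Its log2 fold change was 3.59 with rbCAPG (95% interval 1.54 to 5.64, edgeR adjusted p = 0.193, and 0.0213 with the block) and 4.18 with rbPDI (95% interval 2.11 to 6.25, edgeR adjusted p = 0.0845, and 0.00581 with the block). From the summed counts the ratio to VC was 12.8 with rbCAPG (95% counting interval 5.97 to 32.9) and 18.3 with rbPDI (8.61 to 46.5). SLC5A1 passed the filter on low counts through the treated bEECs alone, since these 6 were the samples with 10 or more counts, so it could be tested because it was high there.

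SLC14A1 rested on the largest counts of the 4, from 78 to 136 in VC bEECs. It had 2.90, 4.35 and 2.33 CPM with VC, 15.9, 11.6 and 7.06 CPM with rbCAPG and 12.6, 11.6 and 6.28 CPM with rbPDI in animals 1 to 3. Here animal 1 was highest with each protein and animal 3 lowest, the reverse of the order seen for CFTR. Its log2 fold change was 1.85 with rbCAPG (95% interval 0.95 to 2.74, edgeR adjusted p = 0.0730, and 0.00424 with the block) and 1.66 with rbPDI (95% interval 0.78 to 2.55, edgeR adjusted p = 0.0847, and 0.00613 with the block).

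GJB6 had 0.0302, 0.320 and 0.299 CPM in VC bEECs, 0.579, 1.67 and 1.55 CPM with rbCAPG and 0.937, 1.67 and 2.52 CPM with rbPDI. Animal 1 was lowest in all 3 groups. Its log2 fold change was 2.54 with rbCAPG (95% interval 1.02 to 4.07, edgeR adjusted p = 0.188, and 0.00943 with the block) and 2.97 with rbPDI (95% interval 1.44 to 4.51, edgeR adjusted p = 0.0728, and 0.00197 with the block). The VC value of animal 1 was 1 count, and 10 of the 18 GJB6 values were not whole, so part of its reads was shared with another place or gene.

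With rbPDI, then, 0 of 4 genes were called in bEECs by the main edgeR test, against 0.809% of all tested genes, while 4 of 4 had an unadjusted p under 0.05, as did 8.34% of all. With the animal as a block 3 of 4 were called, against 2.96%, and DESeq2 called 3 of 4, against 1.28%, CFTR being the exception in both. Without SLC5A1 the block called 3 of 3 with rbCAPG and 2 of 3 with rbPDI. Again the 4 genes lay above the VC samples without overlap, as did 8.06% of all tested genes. The VC samples are the same ones as in the rbCAPG comparison, so the changes and the numbers called with the 2 proteins are not independent of each other.

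**Figure D2:**
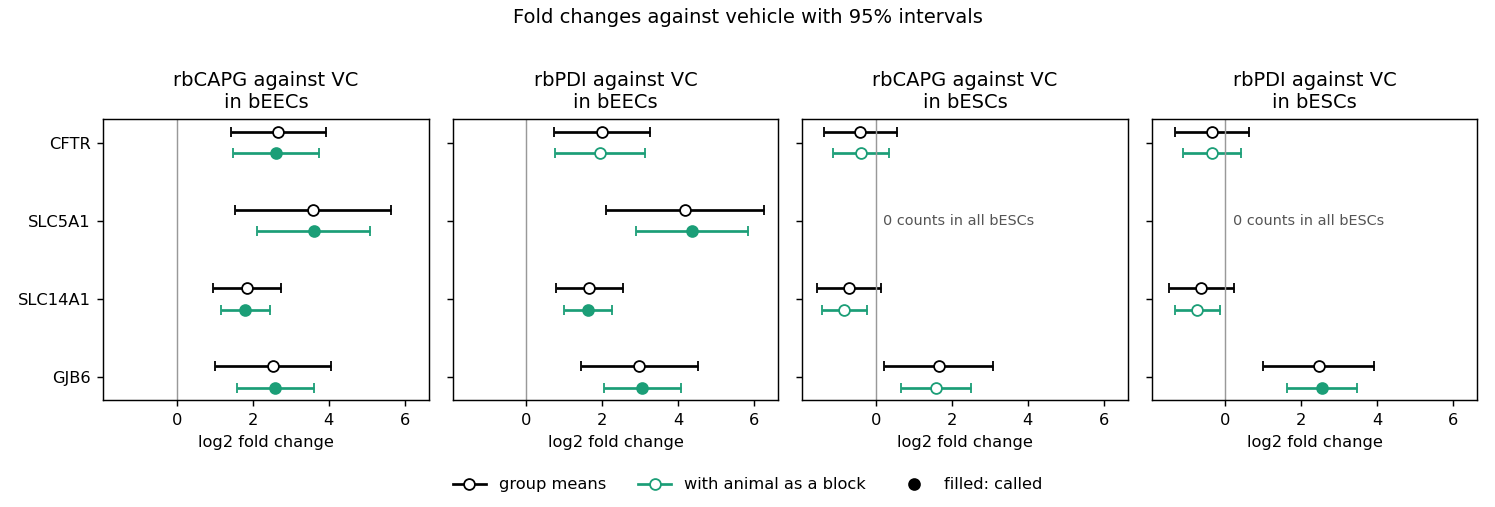
Log2 fold change against VC (x axis) of each gene (y axis) in bEECs and bESCs with rbCAPG and rbPDI, with 95% intervals; black points come from the fit of group means, green points from the fit with the animal as a block, and filled points were called. In bEECs the intervals lie above 0 for the 4 genes with each protein, and in bESCs they do so for GJB6, while those of CFTR span 0. Those of SLC14A1 in bESCs span 0 in the fit of group means and lie below 0 in the fit with the block, without a call.

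The second question was whether the bESCs behind the membrane changed with them. GJB6 had higher values in treated bESCs, as in treated bEECs, while the mean of CFTR and SLC14A1 in treated bESCs was below that with VC. SLC5A1 had 0 counts throughout and was not compared. In bESCs, 0 of 3 measurable genes were called by the main edgeR test with either protein, where 0.0948% of all tested genes were called with rbCAPG and 0.178% with rbPDI. GJB6 alone of the 3 had an unadjusted p under 0.05 with each protein, against 2.74% and 5.30% of all tested genes. DESeq2 called 0 of 3 with rbCAPG and 1 of 3 (GJB6) with rbPDI, against 0.238% and 0.580%.

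GJB6 had 0.529, 0.516 and 0.129 CPM in VC bESCs, 2.02, 1.00 and 0.646 CPM with rbCAPG and 2.96, 1.64 and 1.85 CPM with rbPDI. Each treated group lay above the VC samples without overlap, as did 3.02% of all tested genes with rbCAPG and 4.10% with rbPDI. The log2 fold change was 1.66 with rbCAPG (95% interval 0.23 to 3.10, edgeR adjusted p = 1, and 0.207 with the block) and 2.46 with rbPDI (95% interval 0.99 to 3.92, edgeR adjusted p = 0.283). With the animal as a block, GJB6 was called with rbPDI (log2 fold change 2.54, edgeR adjusted p = 0.00918), where 1.05% of tested genes were called, and 0 of the 3 genes were called with rbCAPG, where 0.480% were.

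SLC14A1 had 51.1, 54.3 and 64.5 CPM in VC bESCs, 38.7, 18.3 and 47.7 CPM with rbCAPG and 56.1, 22.0 and 32.2 CPM with rbPDI. It was lower in 3 of 3 animals with rbCAPG, without overlap between the groups (2.10% of all tested genes were lower without overlap), and in 2 of 3 with rbPDI. The log2 fold change was -0.70 with rbCAPG (95% interval -1.54 to 0.15, edgeR adjusted p = 1) and -0.63 with rbPDI (95% interval -1.47 to 0.22, edgeR adjusted p = 1). In the blocked fit these were -0.82 (95% interval -1.41 to -0.23, edgeR adjusted p = 0.464) and -0.74 (95% interval -1.33 to -0.14, edgeR adjusted p = 0.333), neither called. The shallowest library of the series, animal 1 with rbPDI, held the highest treated value.

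CFTR had 1.76, 1.94 and 4.41 CPM in VC bESCs, 1.37, 2.76 and 2.03 CPM with rbCAPG and 1.39, 2.98 and 1.94 CPM with rbPDI. Animal 2 was highest with each protein, and animal 3 was highest with VC. The log2 fold change was -0.40 with rbCAPG (95% interval -1.36 to 0.56) and -0.35 with rbPDI (95% interval -1.32 to 0.62, edgeR adjusted p = 1 for each). The direction rested on the VC sample of animal 3, without which the values were 0.17 and 0.20.

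The difference between the changes in the 2 cell types was tested as an interaction. For SLC14A1 the change in bEECs exceeded that in bESCs by 2.55 on the log2 scale with rbCAPG (95% interval 1.32 to 3.77, edgeR adjusted p = 0.258) and by 2.29 with rbPDI (95% interval 1.07 to 3.52, edgeR adjusted p = 0.333). With the animal as a block these were called, at 2.63 (edgeR adjusted p = 0.0174) and 2.37 (edgeR adjusted p = 0.0179), where 0.223% and 0.441% of tested genes were called. In the main edgeR test 0 of the 3 measurable genes were called with either protein, against 0.0669% and 0.0948% of all tested genes, and 2 of 3 had an unadjusted p under 0.05 with each, against 3.42% and 4.72%. DESeq2 called 2 of 3 with rbCAPG (SLC14A1 and CFTR) and 1 of 3 with rbPDI (SLC14A1), against 0.168% and 0.285%. For CFTR the interaction was 3.08 with rbCAPG (95% interval 1.51 to 4.65, edgeR adjusted p = 0.346) and 2.34 with rbPDI (95% interval 0.75 to 3.93, edgeR adjusted p = 0.613). For GJB6 it was 0.88 (95% interval -1.17 to 2.93) and 0.52 (95% interval -1.52 to 2.55), edgeR adjusted p = 1 for each, so a difference between the cell types was not detected.

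For SLC5A1 the cell types could be compared with the proteins as a bound on group means. The mean in bEECs was 13.2-fold the mean CPM of 3 counts per bESC library with rbCAPG, and 10.5-fold with rbPDI. These values do not cover the error of the few bEEC counts and need not hold in each animal. In animal 3 with rbCAPG, 0.357 CPM in bEECs stood against 0.0692 CPM for 3 counts in bESCs. SLC5A1 also passed the filter on low counts through these treated bEECs.

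The order of the levels put these comparisons together. For CFTR and SLC14A1 the 3 bESC groups came first, each overlapping the next in mean level, treated bEECs followed with rbCAPG and rbPDI overlapping, and VC bEECs came last, with no overlap at either step. VC and rbCAPG bESCs, the highest and the lowest of the bESC groups, overlapped for CFTR and not for SLC14A1. For SLC5A1 the treated bEECs overlapped each other and stood above VC bEECs. For GJB6 the 4 treated groups of both cell types overlapped in sequence, from 2.15 ± 0.706 CPM in rbPDI bESCs to 1.22 ± 0.715 CPM in rbCAPG bESCs (SD, n = 3), and stood above the VC groups.

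rbPDI and rbCAPG were also compared directly. The log2 difference in bEECs, rbPDI minus rbCAPG, was -0.69 for CFTR (95% interval -1.76 to 0.38), 0.59 for SLC5A1 (-1.09 to 2.27), -0.18 for SLC14A1 (-1.04 to 0.67) and 0.43 for GJB6 (-0.92 to 1.79). None of the 4 was called, nor was any other of the 17931 genes (0 by edgeR, 0 by DESeq2, and 103 with an unadjusted edgeR p under 0.05, or 0.574%). The bEECs were higher with rbPDI than with rbCAPG in 0 of 3 animals for CFTR, 3 for SLC5A1, 0 for SLC14A1 and 2 for GJB6. The bESCs were so in 2 of 3 for CFTR, 2 for SLC14A1 and 3 for GJB6. In bESCs the differences were 0.05 for CFTR (-0.92 to 1.02), 0.07 for SLC14A1 (-0.77 to 0.91) and 0.80 for GJB6 (-0.56 to 2.15), again with 0 genes called by edgeR or DESeq2 and 319 of all tested genes (1.78%) at an unadjusted edgeR p under 0.05.

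Since CFTR and SLC14A1 were bESC-high genes that were higher in treated bEECs, markers of the cell types were read beside them. The 6 epithelial markers with an identifier (MUC1, OCLN, FERMT1, CDH26, RBM47 and AGR2) summed to 701 to 1538 CPM in VC bEECs and to 8.56 to 12.5 CPM in VC bESCs, and 6 of 6 were called higher in bEECs. The 7 stromal markers (VCAN, COL6A1, EMILIN1, NID1, FGFR1, ZEB1 and HAND2) summed to 313 to 349 CPM in VC bESCs and to 11.0 to 21.2 CPM in VC bEECs, and 7 of 7 were called lower in bEECs. Of all tested genes, 19.6% were called higher and 18.9% lower in VC bEECs. The labels of the samples matched these markers, and none of these 13 was at 0 across a group. Every marker used here was itself in the study's lists of genes changed by rbCAPG in these samples, the only source of identifiers, so the markers were preselected for change and are no independent yardstick.

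In treated bEECs the stromal marker sum was 27.8 to 66.5 CPM with rbCAPG and 19.95 to 52.4 CPM with rbPDI, against 11.0 to 21.2 CPM with VC. Of the 7 stromal markers, 7 were higher without overlap with rbCAPG and 3 with rbPDI, and 0 were called by the main edgeR test. With each protein 7 of 7 had an unadjusted p under 0.05, and 6 with rbCAPG and 3 with rbPDI were called with the block, 7 and 3 by DESeq2. The epithelial marker sum was 3039 to 4351 CPM with rbCAPG and 2871 to 4398 CPM with rbPDI, and AGR2 made up most of it, at 465, 2880 and 2590 CPM with VC, rbCAPG and rbPDI. RBM47 was at 94.6, 105 and 106 CPM. Of the 6 epithelial markers, 5 were higher without overlap with rbCAPG and 3 with rbPDI, 0 and 1 were called by the main edgeR test, 4 and 4 had an unadjusted p under 0.05, DESeq2 called 4 and 3, and the block called 3 and 3. To set beside both lists, 8.72% and 8.06% of all tested genes were higher without overlap with rbCAPG and rbPDI. The main edgeR test called 0.513% and 0.809% of them, and 7.21% and 8.34% had an unadjusted p under 0.05. DESeq2 called 0.906% and 1.28%, and the block called 2.19% and 2.96%. The 3 leukocyte markers (CD14, AIF1 and SLAMF8) summed to 15.3 to 21.7 CPM with VC, 47.4 to 60.7 CPM with rbCAPG and 57.9 to 73.7 CPM with rbPDI in bEECs. In VC bESCs, AIF1 was at 0 CPM (rounded counts). The 3 endothelial markers (TEK, SELP and ESM1) summed to 757 to 1287 CPM with VC, 3581 to 4226 CPM with rbCAPG and 3035 to 6585 CPM with rbPDI. This sum was almost wholly ESM1, which was higher in VC bEECs (1010 CPM) than in VC bESCs (121 CPM), while TEK was below 1 CPM and SELP was at 2.68, 13.1 and 19.1 CPM in bEECs with VC, rbCAPG and rbPDI. The part of these markers in the changes of the 4 genes was not tested.

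As a share of the level in bESCs of the same treatment, CFTR in bEECs was 3.41% with VC, 29.4% with rbCAPG and 17.6% with rbPDI. SLC14A1 was 5.64%, 33.0% and 27.6%. The share of the 7 stromal markers was 1.31% to 9.49% with VC, with a median of 3.59%. It was 3.27% to 21.1% (median 9.62%) for rbCAPG and 2.96% to 22.4% (median 10.2%) for rbPDI. By these ratios of group means CFTR and SLC14A1 lay inside the markers' range with VC and above it with rbCAPG, and with rbPDI SLC14A1 lay above it and CFTR inside. Single animals were less uniform. With rbCAPG, CFTR was above the 7 markers in animals 1 and 3 and inside their range in animal 2 (22.7%, against 23.1% for COL6A1), and SLC14A1 was above them in animals 1 and 2 and inside in animal 3 (14.8%, against 41.6% for FGFR1). With rbPDI, SLC14A1 was again inside the range in animal 3 (19.5%, against 35.2% for FGFR1). GJB6 was at 55.4%, 103% and 79.6% by group means. Its single animals ran from 5.72% to 233% with VC, where animal 1 lay inside the markers' range, from 28.6% to 240% with rbCAPG and from 31.7% to 136% with rbPDI, above the markers in each treated animal.

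**Figure D3:**
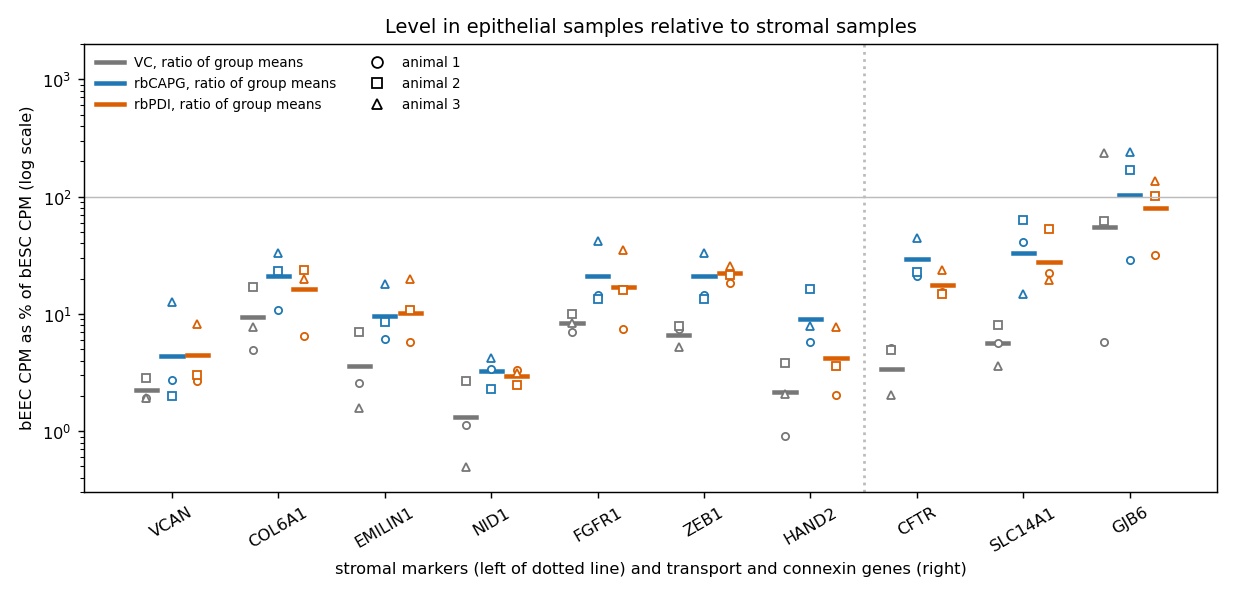
CPM in bEECs as a percent of CPM in bESCs of the same treatment (y axis, log scale) for 7 stromal markers and for CFTR, SLC14A1 and GJB6 (x axis); bars are ratios of group means (n = 3), open points are single animals, and colors give VC, rbCAPG and rbPDI. The 7 markers and the 3 genes each have a higher ratio of group means with either protein than with VC, and the single animals of GJB6 spread most widely, from 5.72% to 240%.

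For each gene the nearest patterns were sought among the 189 other tested genes with a symbol, by the root mean squared difference between log2 CPM profiles over the 18 samples, each centered on its own mean. These symbols come from the study's lists of genes changed by rbCAPG, so the pool is not a sample of all genes. CFTR was nearest to ZEB1, a transcriptional repressor used here as a stromal marker, at 0.36, and 0 of all 17930 other tested genes were nearer. ZEB1 had 2.22 ± 0.569, 7.19 ± 4.77 and 7.01 ± 3.14 CPM in bEECs with VC, rbCAPG and rbPDI, and 33.6 ± 11.4 CPM in VC bESCs (SD, n = 3). PAM, a peptide-amidating enzyme, followed at 0.51 with 4 tested genes nearer, and FMNL3, a formin, at 0.52 with 7 nearer. The median difference over all tested genes was 1.65.

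SLC5A1 was nearest to CAPN14, a calpain protease, at 0.60 with 1 tested gene nearer. CAPN14 had 0 counts in bESCs too, and 0.101 ± 0.0613, 0.885 ± 0.269 and 1.54 ± 0.119 CPM in bEECs with VC, rbCAPG and rbPDI (SD, n = 3). PGLYRP3, a peptidoglycan recognition protein, was at 0.71 with 7 nearer, and CHI3L2, a chitinase-like protein, at 0.73 with 10 nearer. For SLC14A1 more of all tested genes lay nearer than the named ones: SH3RF2 was at 0.68 with 20 tested genes nearer, and PAM was at 0.78 with 80 nearer.

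GJB6 was nearest to NFKBIA, an inhibitor of NF-kappa-B, at 0.78 with 4 tested genes nearer, then to CD40, a receptor of the TNF receptor family, at 0.79 with 5 nearer, and to BIRC3, an inhibitor of apoptosis, at 0.79 with 6 nearer. NFKBIA had 30.2 ± 11.6, 299 ± 31.0 and 338 ± 58.3 CPM in bEECs with VC, rbCAPG and rbPDI, and 53.1 ± 10.8, 179 ± 12.7 and 186 ± 18 CPM in bESCs (SD, n = 3). As with GJB6, the treated groups of both cell types stood above the VC groups.

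The other genes of transport, junctions and the same water transport term were taken as a list of 20 with an identifier. All 20 were drawn from the study's lists of genes changed by rbCAPG in bEECs or bESCs in these samples. Their direction, the numbers called and the medians, also beside the values of all tested genes, are therefore not independent evidence either. Of the 20, 1 was called higher and 0 lower in bEECs with rbCAPG, and 4 higher and 0 lower with rbPDI, where 0.513% and 0.770% of all tested genes were called higher and 0.0390% lower with rbPDI. With the animal as a block 13 and 12 of the 20 were called, all higher, against 2.19% and 2.96% of all tested genes, and DESeq2 called 15 and 12, against 0.906% and 1.28%. The median log2 fold change of the list was 1.56 with rbCAPG and 1.54 with rbPDI, against 0.02 and -0.01 over all tested genes, and the same 1.56 and 1.54 with 1 listed gene at its lower bound. In bESCs 0 of the 20 were called by the main edgeR test with rbCAPG, where 0.0948% of all tested genes were. With rbPDI 1 was called higher, where 0.173% were called higher and 0.00558% lower. Of the 20, 6 with rbCAPG and 8 with rbPDI had an unadjusted p under 0.05, against 2.74% and 5.30% of all. The block called 3 and 4, against 0.480% and 1.05%, and DESeq2 called 5 and 5, against 0.238% and 0.580%. The median in bESCs was 0.47 and 0.46 (0.47 and 0.48 without 3 genes at 3 counts or fewer in both groups), against -0.01 and 0.00. Of the genes named below, those not called by the main test, and HAS2, were chosen after their values were seen.

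Of the 3 junction and adhesion genes, CLMP, an adhesion molecule of tight junctions, was called in bEECs with each protein. It had 1.22 ± 0.243 CPM with VC, 3.17 ± 0.727 CPM with rbCAPG and 3.23 ± 1.14 CPM with rbPDI (SD, n = 3), with log2 fold changes of 1.37 (SE 0.29, edgeR adjusted p = 0.0449) and 1.41 (SE 0.29, edgeR adjusted p = 0.0268). CLMP was itself a bESC-high gene, at 42.6 CPM in VC bESCs. OCLN, the tight junction protein occludin, was at 93.2, 103 and 105 CPM in bEECs with VC, rbCAPG and rbPDI and was not called there. In bESCs OCLN was called with rbPDI, from 0.264 to 1.70 CPM (log2 fold change 2.82, SE 0.53, edgeR adjusted p = 0.0402), although the samples overlapped. The shallowest library, animal 1 with rbPDI, had 0.261 CPM on 3 counts. With rbCAPG, OCLN was also higher in bESCs, at 1.36 CPM (0.992 to 2.05, against 0.227 to 0.308 with VC), and was not called by the main edgeR test.

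Among the 5 solute carriers, SLC17A1, a phosphate and organic anion transporter, and SLC2A6, a hexose transporter of the GLUT family, were called in bEECs with rbPDI. SLC17A1 was at 0.413 CPM with VC, 1.57 CPM with rbCAPG and 3.19 CPM with rbPDI (rbPDI log2 fold change 2.94, SE 0.55, edgeR adjusted p = 0.0405), and it had 0 counts in each of the 9 bESC samples. SLC2A6 was at 14.3, 35 and 38.4 CPM (rbPDI log2 fold change 1.43, SE 0.31, edgeR adjusted p = 0.0399). With rbCAPG these 2 were not called by the main test, but were with the block (edgeR adjusted p = 0.0442 for SLC17A1 and 0.0469 for SLC2A6) and by DESeq2. SLCO4A1, an organic anion transporter, was at 10.1, 9.63 and 9.80 CPM in bEECs and was not called. In bESCs SLCO4A1 was higher with each protein, at 0.266 CPM (0.144 to 0.352) with VC, 2.52 CPM (0.711 to 6.14) with rbCAPG and 2.02 CPM (1.43 to 2.87) with rbPDI. The main edgeR test did not call it there. HAS2, the hyaluronan synthase that the water transport term also holds, was called in bEECs with rbPDI (log2 fold change 3.77, SE 0.83, edgeR adjusted p = 0.0421) from 0.0610 CPM with VC and 0.881 CPM with rbPDI. Its VC level rested on 5, 1 and 0 counts in animals 1 to 3. HAS2 was itself a bESC-high gene, at 2.88 CPM in VC bESCs.

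None of the 6 ion channel genes and subunits, the 2 ion exchangers or the 2 ABC transporters was called by the main edgeR test in treated bEECs. Of these 10 genes, 9 with rbCAPG and 8 with rbPDI had an unadjusted p under 0.05, against 7.21% and 8.34% of all tested genes. The block called 8 and 6 of the 10, against 2.19% and 2.96%, and DESeq2 called 9 and 7, against 0.906% and 1.28%. These 10 are part of the preselected list of 20, so these numbers are not independent evidence. The 6 channel genes were higher in bEECs without overlap with each protein. TMEM176A and TMEM176B, related membrane proteins with cation channel activity, had 0.802 and 0.766 CPM with VC, 4.79 and 3.49 CPM with rbCAPG and 5.91 and 3.95 CPM with rbPDI in bEECs (edgeR adjusted p from 0.0580 to 0.130, and from 0.00350 to 0.0330 with the block, which called both with each protein). For both genes animal 3 was highest with each protein. TMEM176A had 1.57, 3.52 and 9.29 CPM with rbCAPG and 2.13, 2.83 and 12.8 CPM with rbPDI in the bEECs of animals 1 to 3. Both were bESC-high genes, at 73.0 and 64.2 CPM in VC bESCs. PDE4B, which breaks down cyclic AMP, was at 6.55, 13.3 and 13.5 CPM in bEECs and at 22.5, 85.8 and 69.5 CPM in bESCs with VC, rbCAPG and rbPDI. It was not called by the main edgeR test, but the block called it with each protein in bEECs (edgeR adjusted p = 0.0346 and 0.0239) and in bESCs (0.00381 and 0.00439), and DESeq2 called it in bESCs (adjusted p = 0.000383 and 0.00517). Between the cell types with VC, 5 of the 20 listed genes were called higher and 7 lower in bEECs, against 19.6% and 18.9% of all tested genes.

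**Figure D4:**
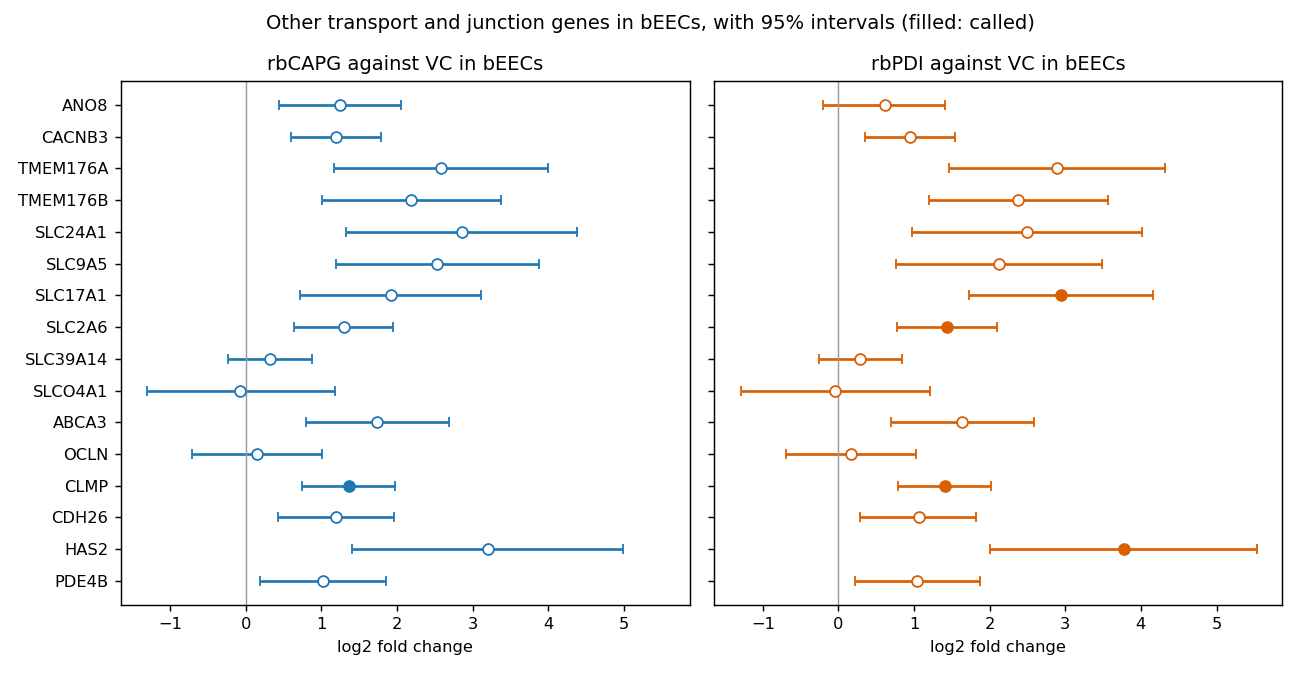
Log2 fold change against VC in bEECs (x axis) with 95% intervals for 16 of the 20 listed transport and junction genes (y axis), with rbCAPG on the left and rbPDI on the right; filled points were called, and 4 genes with 3 counts or fewer in each VC bEEC sample are not drawn. CLMP is filled in both panels, and SLC17A1, SLC2A6 and HAS2 with rbPDI.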

How the data were processed

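The data were 18 bulk RNA libraries, 3 for each of 2 cell types and 3 treatments. Trimmomatic, STAR (genome ARS-UCD1.3) and featureCounts were the tools of the authors, and the deposited table holds estimated counts for Ensembl genes without normalization. Pairs with more than one match or gene were split into fractions, so 23.3% of values were not whole. No strand option was stated, so overlapping and antisense genes can share reads. Tool versions were not given in the sources used here.

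Counts were rounded and analysed in R 4.3.3 with edgeR 4.0.16. After filterByExpr, 17931 genes were tested by the quasi-likelihood F-test with TMM normalization and a mean for each of the 6 groups (12 residual degrees of freedom), with Benjamini-Hochberg adjustment over all tested genes. The edgeR and DESeq2 steps were tested on simulated data drawn from the means and totals of these samples. A standard error is the absolute log2 fold change divided by the square root of F. With 3 against 3 samples an exact permutation test cannot go below 0.1, so p-values come from edgeR or DESeq2 1.42.0.

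The replicate numbers pair the samples because each is 1 animal, whose cells filled its devices. Deviations from group means of same-numbered samples correlated at 0.481 on average (0.311 to 0.624, 9 pairs) in bEECs, 0.396 (0.129 to 0.668, 9 pairs) in bESCs and 0.175 (0.0518 to 0.328, 27 pairs) across cell types. The blocked fit had the animal as a term within each cell type (8 residual degrees of freedom).

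The 4 genes, the lists and the tests were chosen with earlier results of these data known. Named were the 4 genes, in each comparison the 3 called list genes with the smallest p, and the 3 nearest patterns of each gene (log2 CPM with a prior count of 2). Some genes that this rule or the lists hold are not reported here by name. Symbols came from the study's supplementary lists (190 of 245 identifiers). A RefSeq gene table of another assembly held no matching identifier and gave neighbours alone: 0 RefSeq genes overlapped any of the 4, and SLC5A4, a related gene, lies beside SLC5A1, and SLC14A2 beside SLC14A1. Aquaporins, other connexins and further markers without an identifier, and gene sequences, were not analysed here. Settings varied one at a time were the test (DESeq2, Wald, local dispersion fit), the size factors (those of DESeq2 in edgeR), the filter (none, 29859 genes, or 10 counts in 9 samples, 15712 genes), the replicate block, the groups in the fit, rounding, the limit on the fold change and the samples, each left out in turn. The proteomics data were not analysed here.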

Additional observations from a re-analysis of the deposited data

Results flagged for a closer look

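SLC14A1, the urea transporter, was flagged because its change with rbCAPG ran in opposite directions in the cell types: it was higher than with VC in the bEECs of 3 of 3 animals (log2 ratios of 2.45, 1.42 and 1.60 in animals 1 to 3) and lower in the bESCs of 3 of 3 animals (-0.40, -1.57 and -0.43). The interaction was 2.55 on the log2 scale and did not pass the main edgeR test (adjusted p = 0.258, from 0.00429 to 0.804 across the alternatives), while edgeR with the animal as a block called it (2.63, adjusted p = 0.0174). With rbPDI, the bESC ratio of animal 1, the shallowest library, was 0.13, and those of animals 2 and 3 were -1.30 and -1.0.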

How the results depend on the processing

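The number of the 4 genes called in bEECs with rbCAPG was 0 in the main test, 4 with the replicate block, which models the pairing by animal, 4 with DESeq2, 1 with no filter on low counts and 0 to 1 with each sample left out in turn (1 without the rbCAPG sample of animal 1). With rbPDI in bEECs it was 0, and 3 with the block, 3 with DESeq2, 3 with no filter on low counts and 1 when the compared groups were fitted alone. With rbPDI in bESCs it was 0, and 1 with the block and 1 with DESeq2. For the interactions it was 0, and 1 with the block, 2 with DESeq2 and 1 with no filter for rbCAPG, and 1 with the block and 1 with DESeq2 for rbPDI. Between the cell types with VC it was 3, and 2 to 3 with samples left out. SLC5A1 was not tested under the stricter filter of 10 counts in 9 samples. The block changed no other call of these genes.

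SLC5A1 between the cell types has no fold and is left out of the following count, its call being the one lost with samples left out. Of 421 recomputed log2 fold changes, 385 kept direction and call, 28 kept direction and became called, 0 lost a call and 8 changed sign, all 8 on leaving out 1 sample and all of uncalled differences: CFTR in bESCs without the VC sample of animal 3 (0.17 with rbCAPG and 0.20 with rbPDI), SLC14A1 between the proteins in bEECs (0.12 without rbCAPG animal 1 and 0.07 without rbPDI animal 3), CFTR between the proteins in bESCs (-0.20 without rbCAPG animal 1 and -0.31 without rbPDI animal 2), and SLC14A1 there (-0.26 without rbCAPG animal 2 and -0.37 without rbPDI animal 1). The other ends of these ranges were -0.69, -0.72, -0.44, 0.32 and 0.34, for CFTR with rbCAPG and rbPDI in bESCs and, between the proteins, SLC14A1 in bEECs, CFTR in bESCs and SLC14A1 in bESCs. Why calls depend on the tool and filter was not tested. Depth limits CFTR and SLC5A1 in VC bEECs, which had 9 and 7 counts in all.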
